A study of Homo sapiens with 12 samples.

Results

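Genes of rapidly induced and short-lived messages were examined in K562, a chronic myeloid leukemia cell line, and in K562/IM, its imatinib-resistant derivative, with and without lycorine, an alkaloid of Amaryllidaceae plants. The genes were IER2, IER3, IER5, KLF2, KLF4, KLF6, KLF10, ZFP36, ZFP36L1 and BTG2, 10 of the 19447 gene symbols in the table. They were chosen by name as immediate early genes or genes of unstable messages, with earlier results of these data known. Messenger RNA was measured in 12 libraries, 3 for each of 4 groups. These were untreated K562, K562+L exposed to 6 µM lycorine, K562/IM, and a group labelled K562/IM+L whose lycorine dose was also 6 µM. K562/IM was 1 line raised by stepwise exposure to imatinib and maintained in 5 µM of it, so that it stands for a single selection, and whether imatinib was present at harvest is not stated. The time from lycorine addition to RNA extraction is not given in the sources used here. The labels do not say whether the 3 libraries of a group came from separate cultures. The p-values thus judge a difference between groups against the spread between these libraries, which may be technical.

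The libraries held 75093844 to 107344598 counts, and 13900 to 14816 symbols were above 0. A K562 marker list of 11 genes, none at 0 in any group, summed to 6533 to 8816 CPM (counts scaled to a common library size) in K562, 4655 to 5249 in K562+L, 3192 to 3423 in K562/IM and 32794 to 45924 in the K562/IM+L-labelled libraries. ABCB1, the drug efflux pump, averaged 23.5 ± 2.04 CPM in K562/IM (SD, n = 3) and stood at 3.83, 3.84 and 5.14 CPM in K562+L. The K562/IM+L-labelled libraries held 0.706, 0.490 and 1.06 CPM, under the 1.68 to 1.86 CPM of K562. This group is therefore named by its label, and every comparison with it was set against both K562/IM and K562. Markers of T cells, B cells, monocytes, fibroblasts and endothelium each summed to under 7 CPM, apart from a T cell list at 21.9 to 23.4 CPM in K562/IM, nearly all from CD3D, where CD2, CD3E and CD3G each averaged under 1 CPM. Their part in the results below was not tested.

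Immediate early genes are transcribed within minutes of a signal through factors already present in the cell, such as SRF and CREB, and need no new protein synthesis. Their messages are often short-lived because AU-rich elements in the 3′ untranslated region (UTR) are bound by proteins of the ZFP36 family, which recruit deadenylases. Lycorine is known as an inhibitor of protein synthesis. A level in these data is an amount of RNA, and neither transcription nor decay was measured. In bulk libraries fewer cells carrying a message and less of it per cell cannot be told apart.

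AU-rich matches were sought in the longest 3′ UTR of each gene in GENCODE 29 (GRCh38), reading the sense strand only. The heptamer TATTTAT, the core of sites bound by ZFP36 proteins, was present in 7 of the 10 genes (70%) and in 5826 of 18578 genes in all (31.4%). It occurred 0.981 times per kb in the 10 genes and 0.321 times per kb over all genes, with median 3′ UTR lengths of 1201 and 1101 bases. IER3 and IER5 held 4 copies, ZFP36 and ZFP36L1 3 copies, and KLF2, KLF6 and BTG2 1 copy, the density being highest in IER3 at 4.43 per kb, while none was found in IER2, KLF4 or KLF10. The longer TTATTTATT, which contains a TATTTAT in each copy, was found in 3 of 10 genes against 8.30% of all genes, and the bare pentamer ATTTA, contained in both, in 9 of 10 against 67.8%. A match is a description of the sequence, and the isoform used in these cells was not measured. As the 10 genes were chosen partly for unstable messages, a higher share of matches than over all genes may come from that choice. Stretches from the 2 genes encoding AU-rich element binding proteins, from IER5, and from the genes called in K562+L are given here, with TATTTAT in capitals.
ZFP36, chr19:39409187-39409216, plus strand: cccttTATTTATgacgacttTATTTATtct
ZFP36L1, chr14:68788336-68788365, minus strand: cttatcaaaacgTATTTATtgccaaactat
IER5, chr1:181092446-181092475, plus strand: tcttccttTATTTATTTATTTATttaatta
KLF6, chr10:3778341-3778370, minus strand: ctatgtttctctTATTTATgccttgaggac
BTG2, chr1:203307527-203307556, plus strand: taaatgaagagcTATTTATatatattattt
In ZFP36 a pair of separate heptamers lay within 1 stretch, and in IER5 overlapping copies formed a continuous run, whereas KLF6 and BTG2 each held a single heptamer.

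Of the 3 IER genes, IER3 and IER5 held TATTTAT in the 3′ UTR and IER2 did not. IER2 (chromosome 19, 13150415-13154908, GRCh38) encodes a nuclear regulator of transcription induced by growth factors. Its level was 176, 222 and 214 CPM in K562, 212, 186 and 184 CPM in K562+L, 307, 296 and 290.4 CPM in K562/IM, and 167, 147 and 112 CPM in the K562/IM+L-labelled libraries. The K562 and K562+L libraries overlapped, every K562/IM library was higher than both, and every K562/IM+L-labelled library was lower than every other library. IER3 (chromosome 6, 30743199-30744554), a stress-induced regulator of apoptosis and a target of NF-kappaB, had 8.12, 8.77 and 7.999 CPM in K562 and 4.83, 6.32 and 4.46 CPM in K562+L. It had 52.6, 48.8 and 47.8 CPM in K562/IM, and 8.33, 7.76 and 6.08 CPM in the K562/IM+L-labelled libraries. K562/IM thus stood apart from the other 9 libraries, and the K562/IM+L-labelled libraries overlapped those of K562. IER5 (chromosome 1, 181088712-181092899), a partner of the heat shock factor HSF1, had 67.5, 72.7 and 74.4 CPM in K562 and 70.7, 77.2 and 69.4 CPM in K562+L. In K562/IM it had 143, 141 and 133 CPM, and in the K562/IM+L-labelled libraries 115, 113 and 90.3 CPM. Both groups labelled as K562/IM were above both K562 groups, and lycorine-treated K562 overlapped the untreated cells. The annotation places AC011446.2 antisense to IER2 over 946 exonic bases and IER3-AS1 antisense to IER3 over 359, and the strand setting of the counting is not given, so that the levels of IER2 and IER3 may hold reads of these partners.

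**Figure D1:**
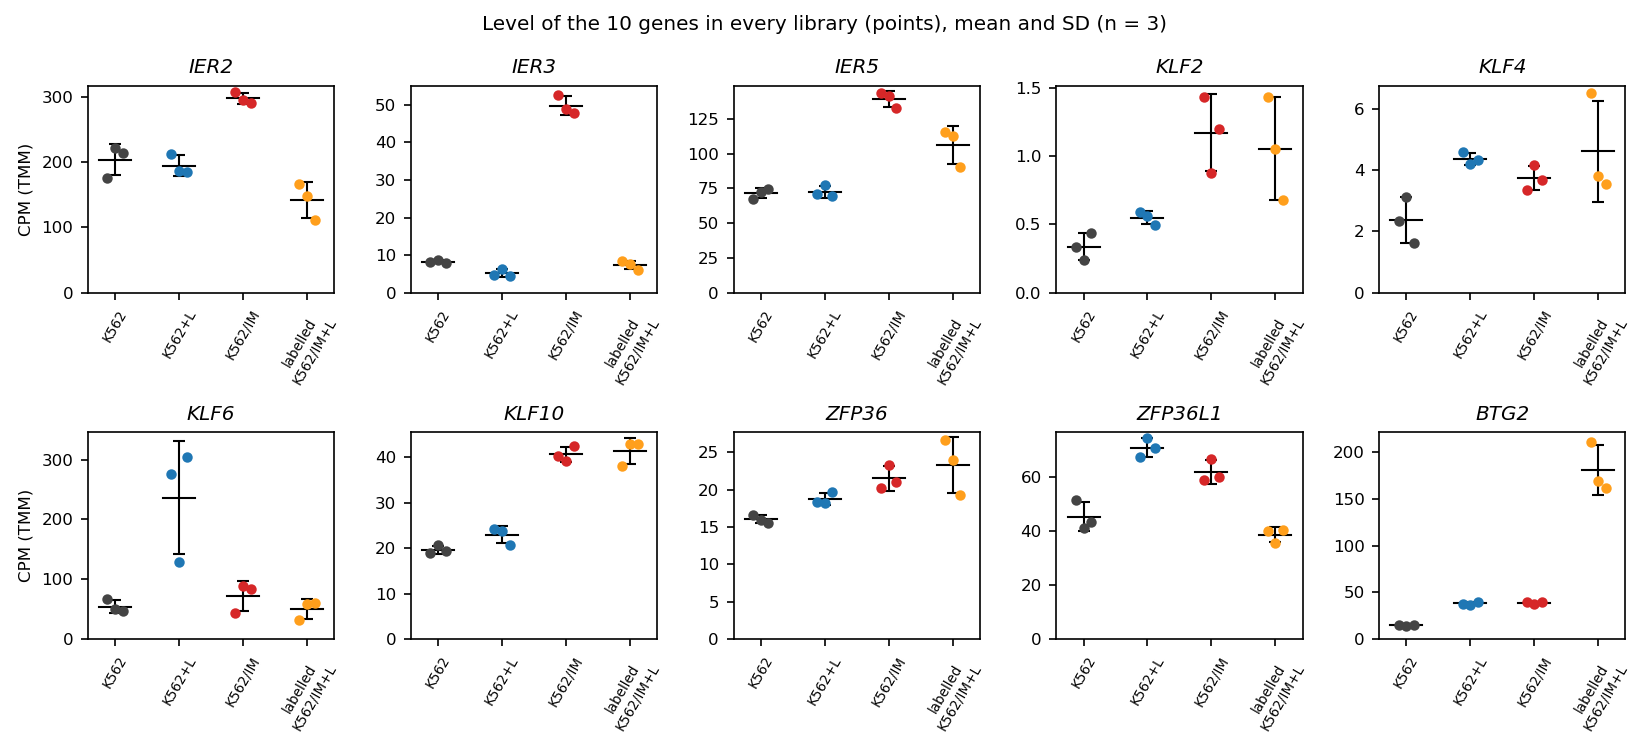
CPM (linear axis from 0) of each of the 10 genes in the 12 libraries, with a point for each library and lines for the mean and SD of each group (n = 3). IER3 stands at 47.8 to 52.6 CPM in K562/IM, BTG2 at 162 to 211 CPM in the K562/IM+L-labelled libraries, and KLF6 at 128 to 304 CPM in K562+L.

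The 4 KLF genes encode zinc finger transcription factors. KLF2, a factor of quiescence in lymphocytes and endothelium (chromosome 19, 16324817-16327874), was rare, with 0.331, 0.238 and 0.437 CPM in K562 and 0.589, 0.565 and 0.498 CPM in K562+L. It had 1.44, 0.874 and 1.20 CPM in K562/IM and 1.44, 1.05 and 0.681 CPM in the K562/IM+L-labelled libraries, from 20 to 129 counts per library. The last 2 groups overlapped and both were above K562. KLF4, a pluripotency and differentiation factor (chromosome 9, 107484852-107490482), was also low, with 2.36, 3.14 and 1.63 CPM in K562, 4.59, 4.21 and 4.33 CPM in K562+L, 3.37, 4.16 and 3.69 CPM in K562/IM and 6.503, 3.80 and 3.54 CPM in the K562/IM+L-labelled libraries. Only the K562 libraries lay below all others.

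KLF6 (chromosome 10, 3775996-3785281), an injury-responsive factor described as a growth suppressor, had 66.5, 50.2 and 46.8 CPM in K562 and 275, 128 and 304 CPM in K562+L. It had 43.5, 89.6 and 83.3 CPM in K562/IM and 31.9, 59.0 and 60.4 CPM in the K562/IM+L-labelled libraries. The K562+L libraries stood above the other 9, whose groups overlapped one another. KLF10 (chromosome 8, 102648779-102655902), an early gene of TGF-beta signaling, had 18.9, 20.7 and 19.4 CPM in K562, 24.3, 23.7 and 20.8 CPM in K562+L, 40.3, 39.1 and 42.5 CPM in K562/IM and 38.0, 43.0 and 42.9 CPM in the K562/IM+L-labelled libraries. Its level followed the line named in the label, and the groups labelled K562/IM and K562/IM+L overlapped.

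Among the regulators of message decay, ZFP36 (tristetraprolin, chromosome 19, 39406813-39409412) differed least between group means. Its libraries held 15.6 to 16.6 CPM in K562, 18.2 to 19.7 CPM in K562+L, 20.2 to 23.3 CPM in K562/IM and 19.3 to 26.7 CPM in the K562/IM+L-labelled libraries. ZFP36L1 (chromosome 14, 68787660-68796253), its paralog, had 51.5, 41.4 and 43.4 CPM in K562 and 67.5, 74.6 and 70.8 CPM in K562+L. In K562/IM it had 58.9, 66.9 and 59.98 CPM, and in the K562/IM+L-labelled libraries 40.2, 35.5 and 40.6 CPM. The K562+L libraries were the highest and the K562/IM+L-labelled libraries the lowest, with no overlap between neighbouring groups. BTG2 (chromosome 1, 203305491-203309602), an antiproliferative target of p53 that binds the CCR4-NOT deadenylase, had 15.6, 13.8 and 15.7 CPM in K562, 37.9, 36.4 and 40.1 CPM in K562+L, 39.9, 37.5 and 39.5 CPM in K562/IM and 211, 169 and 162 CPM in the K562/IM+L-labelled libraries. K562+L and K562/IM overlapped, K562 was below both and the K562/IM+L-labelled libraries were above both.

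Levels were compared between genes as CPM per kb of exon. In K562, IER2 was the most abundant at 66.4 CPM per kb, followed by IER5 at 17.1, KLF6 at 8.88, ZFP36L1 at 8.81 and ZFP36 at 7.99, and KLF2 was the least abundant at 0.166. In K562+L the mean of KLF6 was 38.4 CPM per kb, second to IER2 at 63.2. In the K562/IM+L-labelled libraries, BTG2 at 65.4 CPM per kb exceeded IER2 at 46.2.

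The first comparison asked how lycorine altered these messages in imatinib-sensitive cells. KLF6 rose by 2.11 on the log2 scale (SE 0.31, adjusted p = 0.00218 by edgeR's quasi-likelihood test) and BTG2 by 1.34 (SE 0.096, adjusted p = 1.4e-04). Both passed the threshold for a call, an adjusted p under 0.05 with a log2 change beyond 1 in either direction, so that 2 of 10 genes were called higher and 0 lower. Over all 12927 genes tested, 2.38% were called higher and 4.01% lower. By adjusted p alone, ZFP36L1 rose by 0.64 (SE 0.11, adjusted p = 0.00352) and KLF4 by 0.88 (SE 0.24, adjusted p = 0.0225), while IER3 fell by 0.67 (SE 0.16, adjusted p = 0.0133), giving 4 of 10 genes higher and 1 lower against 18.2% and 19.0% of all genes. KLF4 missed the adjusted p without any 1 of the K562+L libraries (0.0505 to 0.0757), and IER3 without the second K562 library (0.0535) or the first K562+L library (0.0562). IER2, IER5, KLF2, KLF10 and ZFP36 did not pass, with log2 changes of -0.07, 0.02, 0.71, 0.22 and 0.22. The median change was 0.43 over the 10 genes and -0.00012 over all genes tested.

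**Figure D2:**
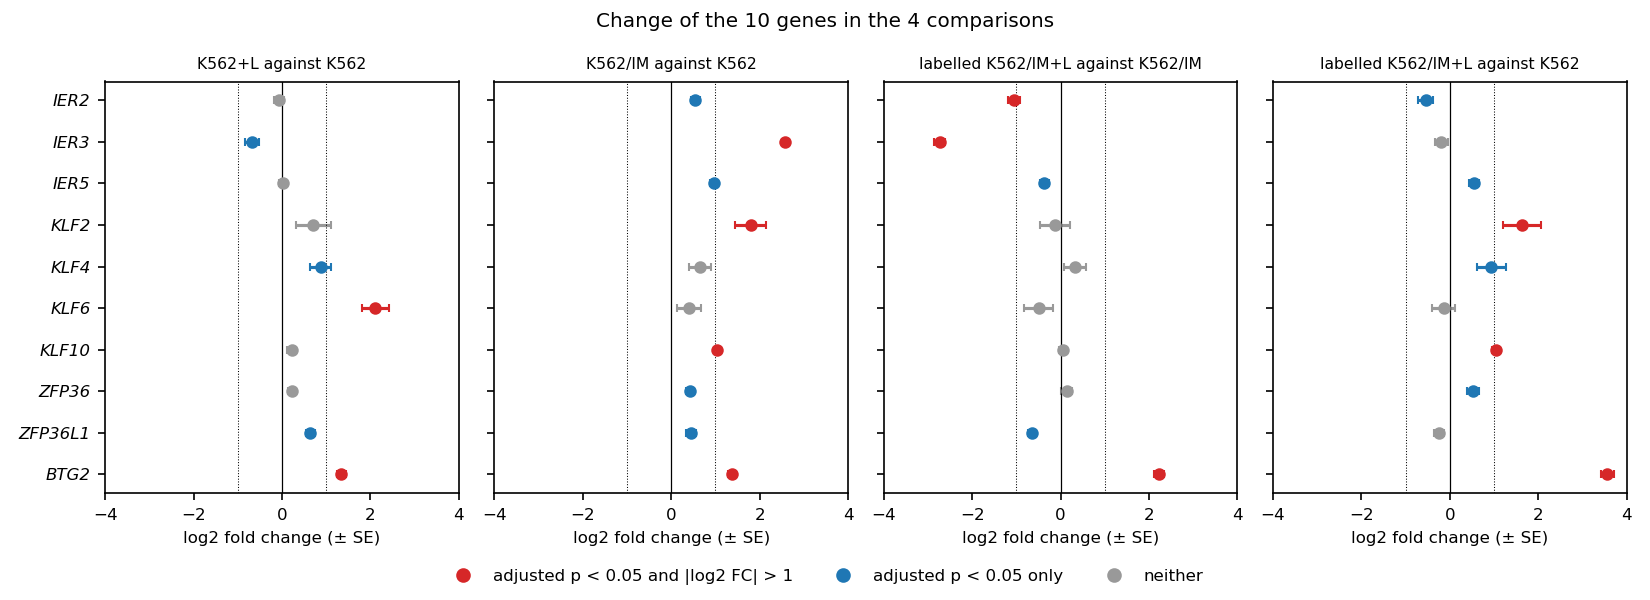
Log2 fold change of each gene with its standard error in the 4 comparisons of groups, from edgeR's quasi-likelihood fit, with lines at 0 and at a change of 1 in either direction; red points were called, blue points passed the adjusted p alone and grey points neither. BTG2 lies above 1 in all 4 comparisons, and IER3 moves from 2.58 in K562/IM against K562 to -2.73 in the K562/IM+L-labelled libraries against K562/IM.

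The second comparison set the resistant line against its parent without lycorine. 9 of the 10 genes, KLF6 excepted, were higher in every K562/IM library than in every K562 library, as were 35.6% of 13406 genes, and 4 of 10 were called higher and 0 lower, against 13.9% and 5.29% of all genes. IER3 was 5.99-fold higher (log2 change 2.58, SE 0.086, adjusted p = 7.7e-07 by edgeR's quasi-likelihood test). KLF2 rose by 1.80 (SE 0.35, adjusted p = 0.00331), BTG2 by 1.38 (SE 0.085, adjusted p = 1.1e-05) and KLF10 by 1.04 (SE 0.078, adjusted p = 2.9e-05) on the log2 scale, the last at 0.99 and no longer called without the first K562 library. IER5 at 0.96, IER2 at 0.55, ZFP36L1 at 0.45 and ZFP36 at 0.42 passed the adjusted p alone, which gave 8 of 10 genes higher against 30.1% of all genes, and 0 lower against 27.1%. KLF4 at 0.65 (adjusted p = 0.0550) and KLF6 at 0.40 (adjusted p = 0.225) did not pass, although KLF4 did without the second K562 library (adjusted p = 0.0176) and KLF6 without the first K562/IM library (adjusted p = 0.0146). The median log2 change was 0.81 over the 10 genes and 0.042 over all genes.

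The third comparison, which set the K562/IM+L-labelled libraries against K562/IM, asked what lycorine did in resistant cells, as labelled. Whether the label is right was not tested, nor was the source of the ABCB1 and K562 marker levels given above for these libraries. BTG2 was 4.70-fold higher (log2 change 2.23, SE 0.11, adjusted p = 3.3e-06 by edgeR's quasi-likelihood test). IER3 fell by 2.73 (SE 0.13, adjusted p = 2.4e-06) and IER2 fell by 1.05 (SE 0.14, adjusted p = 3.7e-04), and 1 gene was called higher and 2 lower, against 14.7% and 13.8% of 13727 genes. IER2 was not called without the third K562/IM+L-labelled library, where it fell by 0.90. ZFP36L1 fell by 0.65 (SE 0.087, adjusted p = 4.0e-04) and IER5 by 0.37 (SE 0.10, adjusted p = 0.0138), so that by adjusted p alone 1 gene rose and 4 fell, against 33.2% and 33.6% of all genes. The adjusted p of IER5 was 0.0512 without the first K562/IM library. KLF2, KLF4, KLF6, KLF10 and ZFP36 did not pass, with log2 changes of -0.13, 0.32, -0.49, 0.05 and 0.14. KLF6 passed the adjusted p without the first K562/IM library (0.0478), and ZFP36 without the third K562/IM+L-labelled library (0.0338). The median change was -0.25 over the 10 genes and -0.0069 over all.

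Set against K562, the K562/IM+L-labelled libraries had 3 of 10 genes called higher and 0 lower, against 14.9% and 8.91% of 13307 genes (1977 and 1185 genes, or 2355 and 873 under upper-quartile scaling). BTG2 was 11.8-fold higher (log2 change 3.57, SE 0.14, adjusted p = 8.0e-06 by edgeR's quasi-likelihood test), KLF10 rose by 1.05 (SE 0.094, adjusted p = 1.1e-04) and KLF2 by 1.63 (SE 0.43, adjusted p = 0.0151). KLF2 lost its call without the second K562 library (adjusted p = 0.0507) and without the first K562/IM+L-labelled library (adjusted p = 0.0687). IER5, KLF4 and ZFP36 rose by 0.55, 0.94 and 0.52 by adjusted p alone and IER2 fell by 0.54, which made 6 genes higher and 1 lower against 28.2% and 27.8% of all genes. Of these, IER5 alone kept its adjusted p under 0.05 without any 1 library, whereas IER2, KLF4 and ZFP36 reached 0.0933, 0.154 and 0.0569. IER3 at -0.19, ZFP36L1 at -0.25 and KLF6 at -0.14 did not pass. All 4 comparisons share groups with one another, and their values are given side by side only.

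**Figure D3:**
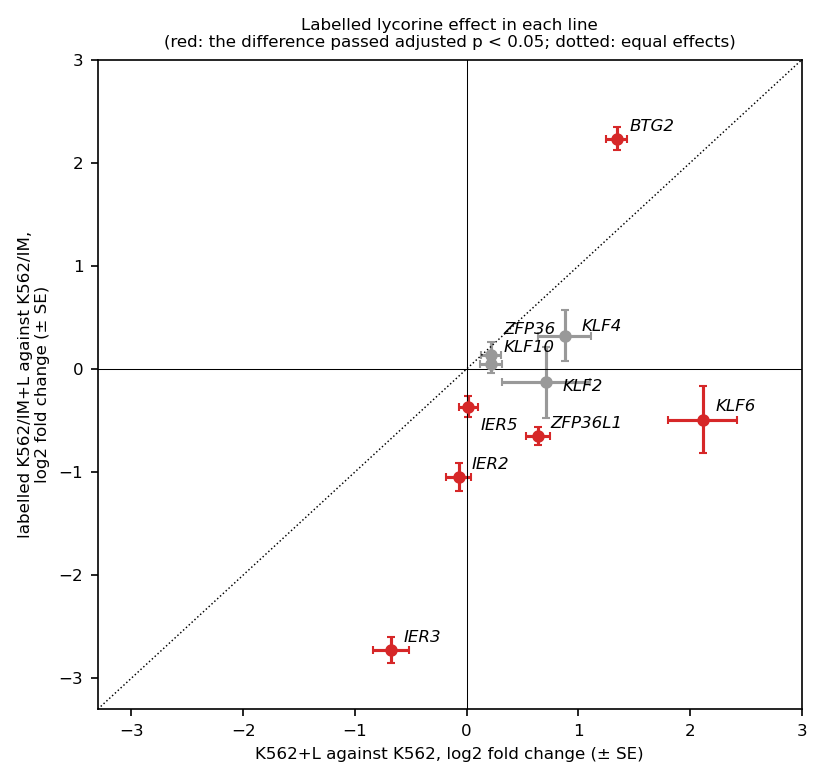
Log2 change with lycorine in K562 on the x axis and in the K562/IM+L-labelled libraries against K562/IM on the y axis, with standard errors, for the 10 genes, those whose difference between the lines passed the test in red and the line of equal effects dotted. KLF6 lies at 2.11 and -0.49, IER3 at -0.67 and -2.73, and BTG2 at 1.34 and 2.23.

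The difference in response between the lines was the interaction term of a fit to the 12 libraries, with the K562/IM+L-labelled libraries taken at their label. A difference passed an adjusted p of 0.05 for 6 of the 10 genes and for 61.7% of 13995 genes, so that the count says little about these genes as a set. The change was lower in the resistant line by 2.63 on the log2 scale for KLF6 (SE 0.51, adjusted p = 7.8e-04 by edgeR's quasi-likelihood test), and the differences were -2.08 for IER3, -1.32 for ZFP36L1, -0.998 for IER2 and -0.41 for IER5, which missed the threshold without the first K562/IM library (adjusted p = 0.0548). BTG2 differed in the other direction, by 0.87 (SE 0.14, adjusted p = 2.2e-04). KLF2, KLF4, KLF10 and ZFP36 did not pass, at -0.86, -0.58, -0.20 and -0.10.

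KLF6 also varied most between libraries of a group. Its pooled within-group SD was 0.53 on the log2 scale, exceeded by 1.91% of the 10166 genes that averaged at least 5 CPM. In K562+L its highest library was 2.37 times its lowest, with a coefficient of variation of 40.0%. KLF10 varied least, with an SD of 0.091, and the SDs of BTG2 (0.12), ZFP36L1 (0.12) and ZFP36 (0.14) lay near or below the median of 0.138 over those genes. KLF2 and KLF4 had SDs of 0.40 and 0.35, at mean levels under 5 CPM. The rise of KLF6 in K562+L ranged from 1.89 to 2.41 when each library was left out in turn.

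**Figure D4:**
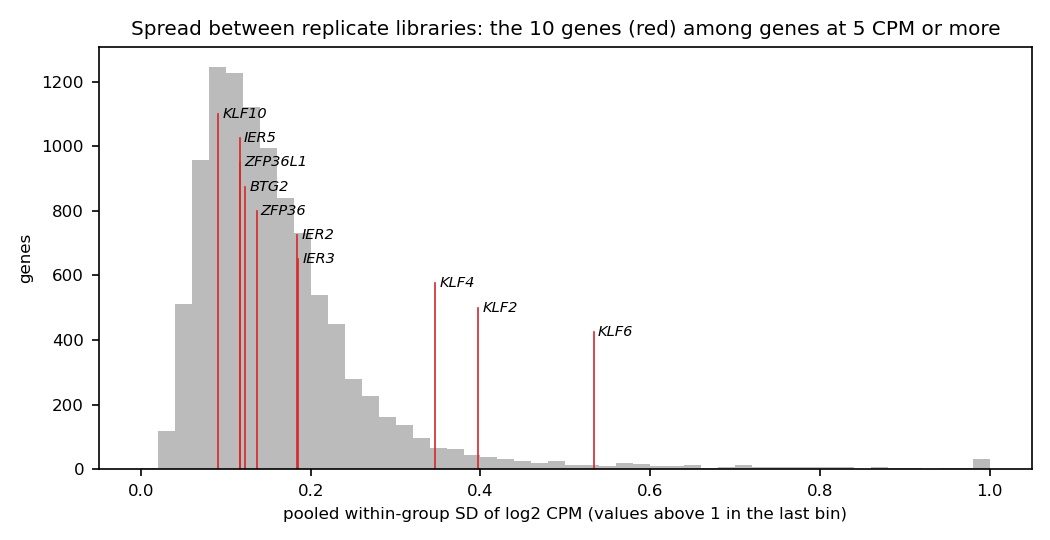
Pooled within-group SD of log2 CPM on the x axis and number of genes with at least 5 CPM on the y axis (grey bars), with a red line for each of the 10 genes, whose height has no meaning. KLF6, at 0.53, lies in the upper tail, and KLF10, at 0.091, below the median of 0.138.

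The promoters of KLF6 and BTG2, the genes called in K562+L, are printed as RefSeq (GRCh38.p14) windows around the annotated start. Capitals mark the CREB octamer TGACGTCA, the E-box CACGTG, the box GGGCGG and the box CCAAT on either strand.
BTG2, chr1:203305269-203305568, plus strand: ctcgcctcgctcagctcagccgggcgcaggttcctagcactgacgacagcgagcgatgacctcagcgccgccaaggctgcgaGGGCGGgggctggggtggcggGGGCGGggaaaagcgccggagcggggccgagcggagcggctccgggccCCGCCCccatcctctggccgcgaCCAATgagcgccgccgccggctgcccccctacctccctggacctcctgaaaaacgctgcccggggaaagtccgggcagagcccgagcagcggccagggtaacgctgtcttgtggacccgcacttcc
KLF6, chr10:3785160-3785459, minus strand: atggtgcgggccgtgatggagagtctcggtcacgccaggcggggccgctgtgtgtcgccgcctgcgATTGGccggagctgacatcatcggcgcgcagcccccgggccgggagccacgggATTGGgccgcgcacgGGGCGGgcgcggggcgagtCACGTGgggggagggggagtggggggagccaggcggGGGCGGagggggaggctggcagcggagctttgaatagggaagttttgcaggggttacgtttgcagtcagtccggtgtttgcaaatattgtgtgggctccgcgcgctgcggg
GGGCGG, the letters of an SP and KLF box, occurred 3 times in BTG2 and 2 times in KLF6, and in 45.0% of 35116 promoters. CCAAT occurred in 34.6% and CACGTG in 7.26% of all promoters, the latter also in KLF6. The letters of an AP-1 site (TGANTCA, 7.71% of promoters), the CArG box bound by SRF (1.29%) and TATAAA (11.5%) were in none of the promoters of the 8 genes read, which leave out IER3 and KLF10, and TGACGTCA (1.85%), bound by CREB, was in 1 of the 2 promoters of ZFP36L1. TATAAA and CCAAT can lie within a CArG box, no other motif lies within another, and an absent match says only that the letters are not in this window.

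The genes with the most similar pattern were ranked by the root mean square difference of the 4 group means of log2 CPM, each centred on its own average, over 10158 genes. The nearest to KLF6 were DUSP16 (0.13) and PPAN-P2RY11 (0.14), and to BTG2 CYP3A5 (0.17) and ASIC3 (0.19). By the nearest gene these distances were the largest of the 10 genes, and IER3 followed with NRGN (0.090) and NXN (0.10). The nearest to ZFP36 were ENDOD1 at 0.014 and DDX17 at 0.015. The distance is not scaled to the size of the differences between groups. Among the 10 genes themselves, IER5 and KLF10 were the closest pair (0.19), followed by KLF4 and ZFP36 (0.26).

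Other immediate early genes outside the 10 gave a different count from one comparison to the next. In K562+L, 8 of 41 tested were called higher and 1 lower (2.38% and 4.01% over all genes, median log2 change 0.025), with JUN, a subunit of AP-1, at 3.36 and the phosphatase gene DUSP1 at 1.72, while NFKBIA, an inhibitor of NF-kappaB, fell by 1.11. In K562/IM, 18 of 44 were called higher and 0 lower (13.9% and 5.29% over all genes, median 0.83), led by PHLDA1 at 3.97, from 3.29 ± 0.205 to 51.7 ± 2.28 CPM (SD, n = 3). In the K562/IM+L-labelled libraries against K562/IM, 2 of 44 were called higher and 24 lower (14.7% and 13.8% over all genes, median -1.06), with PHLDA1 at -4.40 and FOSL1, another AP-1 subunit, at -2.98, and DUSP1 higher by 1.56. Against K562 the same libraries had 4 of 41 higher and 9 lower (14.9% and 8.91% over all genes, median -0.26). JUN was at 2.48 among those higher, and HES1 at -3.04, PLK3 at -2.30 and FOSL1 at -1.88 among those lower.

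The counts of the smaller lists are read against the same shares over all genes, namely 2.38% higher and 4.01% lower in K562+L, 13.9% and 5.29% in K562/IM, 14.7% and 13.8% in the third comparison and 14.9% and 8.91% in the last. Of the other KLF and SP genes, 0 of 12 were called higher and 1 lower in K562+L, 0 in K562/IM, and 3 of 13 higher and 1 lower in the K562/IM+L-labelled libraries against K562/IM. The last were KLF1, the erythroid factor (log2 change 2.01), and KLF13 (2.01) among those higher, and KLF15 (-1.96) lower. Against K562 they were again 3 of 13 higher and 1 lower. Of 34 genes of message decay, 1 was called higher and 1 lower in K562+L, DDX6 at 2.09 and TNKS1BP1 at -1.05. DDX6, a helicase of P-bodies, also varied between libraries, at 237 ± 115 CPM in K562+L. In K562/IM, 2 decay genes were called, both higher, DDX6 at 1.46 and DCP1B at 1.01. Each comparison of the K562/IM+L-labelled libraries had 1 call, DDX6 lower at -1.41 against K562/IM and PAN2 higher at 1.10 against K562. Of the 4 other BTG and TOB genes tested, BTG1, an antiproliferative relative of BTG2, was the only call, at 1.43 against K562/IM and 1.21 against K562. Of 13 SRF and CREB pathway genes, 2 were called higher in K562/IM, ELK3 at 1.36 and RPS6KA5 at 1.01, and both were called lower in the K562/IM+L-labelled libraries against K562/IM, at -2.35 and -1.75.

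**Figure D5:**
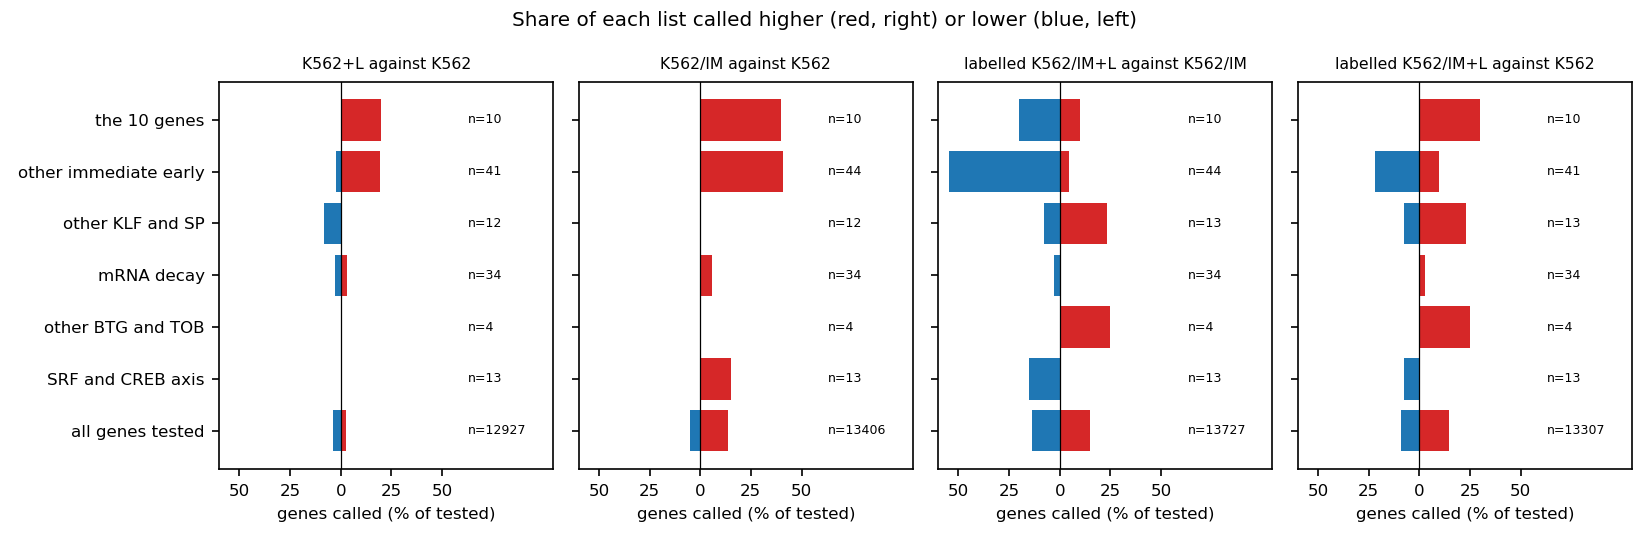
Percentage of the tested genes called higher (red, to the right) and lower (blue, to the left) in each comparison, for the 10 genes, 5 other gene lists and all genes tested, with n the genes tested. Other immediate early genes go from 18 of 44 called higher in K562/IM against K562 to 24 of 44 called lower in the K562/IM+L-labelled libraries against K562/IM.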

How the data were processed

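Messenger RNA of 12 libraries, 3 per group, was sequenced after poly(A) selection. The authors deposited estimated counts per gene symbol, without normalization, and their processing notes name FastQC, STAR, StringTie, DESeq2 and the build hg38, with no versions. Counts from 1 to 25 fell on a multiple of 4 or 1 above it in 67.9% of 23289 values, against 52% of whole numbers, so counting noise may exceed what the totals imply. Libraries were grouped by their labels, and the doses come from the study's methods. No 2 libraries of a group agreed within sampling noise.

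Counts were analysed with R 4.3.3 and edgeR 4.0.16. For each comparison the 6 libraries compared, and for the interaction all 12, were filtered with filterByExpr (minimum count 10), scaled by TMM and tested with the quasi-likelihood method of edgeR, and p was adjusted by Benjamini-Hochberg over all genes tested. A call needed an absolute log2 change over 1 with an adjusted p under 0.05, and interactions an adjusted p under 0.05 alone. The SE is the absolute log2 change divided by the square root of F. CPM used TMM scaling over all 12 libraries. Genes outside the 10 were named as up to 3 called genes of each list and direction with the smallest p whose libraries did not overlap between groups, with the 2 nearest in pattern to each gene, and CD3D, DDX6 and ABCB1 were also given where a result turned on them. The 10 genes and the lists were chosen with earlier results of these data known. Counts were simulated with the same variability between libraries for every gene and with 200 genes changed by a factor of 4. For K562+L against K562, 197 of 200 were recovered, with 0 false calls among the unchanged rest of 12927 genes. For the interaction 195 of 200 were recovered, with 6 false calls among the unchanged rest of 13995. Smaller changes, and genes as variable as KLF6, were not simulated. Alternatives were DESeq2 1.42.0, upper-quartile scaling, no filter, no fold threshold, counts divided by 4, a replicate block and leaving out each library.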

Additional observations from a re-analysis of the deposited data

Results flagged for a closer look

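A difference in the lycorine response between the lines was found for 6 of the 10 genes by edgeR's quasi-likelihood interaction test, with the K562/IM+L-labelled libraries taken at their label. As log2 differences, resistant minus sensitive, the values were -0.998 for IER2 (adjusted p = 7.0e-04), -2.08 for IER3 (adjusted p = 3.9e-06), -0.41 for IER5 (adjusted p = 0.0189), -2.63 for KLF6 (adjusted p = 7.8e-04), -1.32 for ZFP36L1 (adjusted p = 6.5e-06) and 0.87 for BTG2 (adjusted p = 2.2e-04). Among all genes 61.7% passed the same test. The IER5 difference was not past the threshold without the first K562/IM library (-0.37, adjusted p = 0.0548) or under upper-quartile scaling (-0.28, adjusted p = 0.0985). With 3 libraries in each group, no library was tested for standing apart from its group. The ABCB1 level of the K562/IM+L-labelled libraries was below that of K562, and the part of this in the differences was not tested.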

How the results depend on the processing

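Of 750 recomputed values of single genes, 725 kept their direction and their side of the threshold for a call. Outside the interaction, a gene that crossed the adjusted p alone counted as kept, as IER2 against K562 and KLF4 in K562/IM did. Without the fold threshold 5, 8, 5 and 7 of the 10 genes passed in the comparisons in the order reported, instead of 2, 4, 3 and 3, and among all genes 4821, 7661, 9169 and 7446, instead of 826, 2566, 3917 and 3162. DESeq2 called as many of the 10 genes as edgeR in every comparison. With libraries left out in turn the called counts of the 10 genes were 2 to 3, 3 to 4, 2 to 3 and 2 to 4, and 5 to 7 for the interaction.

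Under upper-quartile scaling, which moved the median of all genes from 0.020 to 0.17 against K562 and from -0.020 to 0.11 in the interaction, the K562/IM+L-labelled libraries had 2355 genes called higher and 873 lower than K562, instead of 1977 and 1185. There IER5 turned to -0.027 in K562+L, KLF6 to 0.016 in the K562/IM+L-labelled libraries against K562 and ZFP36 to 0.025 in the interaction. IER5 was then called in K562/IM (1.01) and KLF4 against K562 (1.09), IER2 lost its call against K562/IM (-0.99), and IER5 its interaction (-0.28, adjusted p = 0.0985). The cause was not tested.

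Leaving out 1 library at a time turned 5 values that had not passed. IER5 in K562+L ran from -0.032 to 0.048, KLF2 and KLF4 against K562/IM from -0.42 to 0.11 and from -0.0040 to 0.49, KLF6 against K562 from -0.28 to 0.10 and ZFP36 in the interaction from -0.21 to 0.014. KLF10 in K562/IM lost its call without the first K562 library (0.99). KLF4 was called without the second K562 library in K562+L (1.13) and against K562 (1.18), in the latter also without the third K562/IM+L-labelled library (1.10), and its interaction passed without the first K562/IM+L-labelled library (-0.91, adjusted p = 0.0324).

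Replicate numbers are shared between groups. Same-numbered libraries deviated together in some pairs and in opposite directions in others (correlations from -0.569 to 0.408). In 12 of 36 cases the library of the same number correlated best. With the replicate block 2, 4, 3, 2 and 6 of the 10 genes were called, and 735, 2433, 3807, 2913 and 8319 of all genes, where KLF2 was lost against K562 (1.61, adjusted p = 0.0617), and IER2 and KLF4 passed the adjusted p there no longer (0.0719 and 0.0536). KLF6 against K562/IM passed the adjusted p with the block (0.00233). In K562/IM, KLF4 passed the adjusted p under 6 alternatives, DESeq2 among them (0.0310). KLF2 rested on 20 to 129 counts per library.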
